A study of Homo sapiens with 17 samples.

Results

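ANLN, PRR11, DIAPH3 and DEPDC1 are 4 genes of cell division whose RNA was measured in breast cell lines treated with Maraviroc or with a compound known by its code name, DZH_2. They were taken by gene symbol, and each is read by 1 probe set on the array, so they make up 4 of the 17687 genes measured. All were picked with results of these arrays known. ANLN and PRR11 were picked for their low level at Maraviroc IC50, and DIAPH3 and DEPDC1 for their low level at DZH_2 IC20. For each gene the comparisons of the compound it was picked from are therefore described without a test, and only the comparisons of the other compound carry a p-value. Their group means use none of the arrays a gene was picked from, but the fit shares 1 estimate of the spread over all groups, those arrays included.

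The series holds 17 arrays. MDA-MB-231, a triple-negative breast cancer line, was given Maraviroc at IC20 or IC50 or DZH_2 at IC20 or IC50, and its controls received ethanol (the solvent of Maraviroc), DMSO (the solvent of DZH_2) or nothing. Each of these groups has 2 arrays, apart from untreated cells with 1. MCF10, a line derived from non-tumorigenic breast epithelium, has 4 arrays by title, of cells given DZH_2 at IC20, DZH_2 at IC50, its solvent DMSO or nothing. IC20 and IC50 stand for doses causing 20% and 50% inhibition. Neither the molar doses nor the readout of inhibition appears in the labels. Cells grew for 24 h before treatment and were treated for 48 h. Values are log2 signals, so a difference of 1 is a 2-fold change, and no label ties the replicates to separate cultures. A p-value therefore sets a difference between groups against the scatter of these arrays within groups, and that scatter may be technical.

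Cytokinesis is the step in which an animal cell splits after its chromosomes have separated. The central spindle activates the small GTPase RhoA at the cell equator, RhoA turns on formins and myosin, and a ring of actin and myosin closes until the ESCRT machinery cuts the last bridge. ANLN codes for anillin, the scaffold that ties actin, myosin, septins and RhoA together in this ring. DIAPH3 codes for mDia2, a formin that RhoA activates and that builds unbranched actin filaments. PRR11 codes for a proline-rich protein and lies head to head with SKA2, a gene of the kinetochore. DEPDC1 codes for a DEP domain protein whose RNA is high in dividing cells. RNA of many such genes rises in G2 and M phase, through promoters that carry a cell cycle homology region (CHR) and CCAAT boxes, which are bound by the DREAM and MuvB complexes and by NF-Y.

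The promoters of the 4 genes are shown because the genes moved together across the MDA-MB-231 arrays (correlations are given further on). Each stretch holds 250 bases before to 50 after the first base of the gene, read 5′ to 3′ on the strand of the gene, from RefSeq on GRCh38.p14. Capitals mark the CHR letters TTTGAA and the CCAAT box letters CCAAT on either strand (the opposite strand reads TTCAAA and ATTGG). The stretches are chr7:36389612-36389911 on the + strand for ANLN, chr17:59155496-59155795 on the + strand for PRR11, chr13:60163879-60164178 on the - strand for DIAPH3 (the one of its 2 listed promoters at the outer end of the gene) and chr1:68497033-68497332 on the - strand for DEPDC1.
ANLN: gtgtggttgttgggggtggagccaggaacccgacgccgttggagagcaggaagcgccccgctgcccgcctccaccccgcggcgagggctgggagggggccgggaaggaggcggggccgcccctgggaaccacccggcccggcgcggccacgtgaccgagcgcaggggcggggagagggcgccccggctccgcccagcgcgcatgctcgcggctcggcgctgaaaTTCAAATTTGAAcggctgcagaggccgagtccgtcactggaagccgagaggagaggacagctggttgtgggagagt
PRR11: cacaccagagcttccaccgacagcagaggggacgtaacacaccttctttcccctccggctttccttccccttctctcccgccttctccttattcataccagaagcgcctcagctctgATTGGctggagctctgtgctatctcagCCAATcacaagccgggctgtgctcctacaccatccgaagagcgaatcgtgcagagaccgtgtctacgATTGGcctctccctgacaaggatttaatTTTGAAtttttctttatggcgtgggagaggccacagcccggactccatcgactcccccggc
DIAPH3: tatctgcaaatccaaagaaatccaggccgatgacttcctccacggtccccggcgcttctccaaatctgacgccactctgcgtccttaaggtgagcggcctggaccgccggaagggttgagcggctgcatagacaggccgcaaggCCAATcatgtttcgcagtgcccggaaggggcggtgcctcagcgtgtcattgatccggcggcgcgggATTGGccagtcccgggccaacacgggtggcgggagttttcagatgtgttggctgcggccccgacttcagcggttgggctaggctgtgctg
DEPDC1: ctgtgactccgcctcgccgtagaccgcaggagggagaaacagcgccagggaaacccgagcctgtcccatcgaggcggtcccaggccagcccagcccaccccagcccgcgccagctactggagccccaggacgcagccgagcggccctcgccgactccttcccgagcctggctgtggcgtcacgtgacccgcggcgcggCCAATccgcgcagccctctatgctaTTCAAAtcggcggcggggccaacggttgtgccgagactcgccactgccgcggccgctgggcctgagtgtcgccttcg

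ANLN held TTTGAA once on each strand, at bases -26 and -20 from its first base, in 1 run of capitals. PRR11 held TTTGAA at base -11 and CCAAT at 3 places, at -133, -106 and -39. DEPDC1 held TTTGAA at -27 on the opposite strand and CCAAT at -52, while DIAPH3 held CCAAT at -106 and -40 and no TTTGAA in this window. Of 35116 promoters of the same length, 15.2% held TTTGAA and 34.6% held CCAAT on either strand. The E2F letters TTTGGCGC or TTTCCCGC stood in none of the 4 and in 2.27% of all promoters. PRR11 and SKA2 start 560 bases apart on chromosome 17, on opposite strands. A match of letters describes the sequence and shows no binding.

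Some arrays stood apart before any gene was compared. The 2 Maraviroc IC50 arrays had an interquartile range of 4.05 and 4.07 over genes, against 4.21 to 4.65 on the other 11 MDA-MB-231 arrays, and a median positive control of 11.99 and 12.01 against 12.41 to 12.85. Their replicate SD was 0.546, against 0.277 to 0.366 in the other replicated groups. The 4 arrays titled MCF10 stood further apart, with an interquartile range of 3.34 to 3.62 and a median positive control of 11.01 to 11.54. The part of these differences in the results was not tested. In the arrays titled MCF10, whose cell line field names MDA-MB-231, 2 of 6 basal epithelial markers measured lay above the negative control level (the 75th percentile over 612 negative controls) on all 4 arrays, against 0 of 6 on all 13 MDA-MB-231 arrays. Of 10 epithelial markers 6 lay below that level on all 4 MCF10 arrays, CDH1 and EPCAM among them. On all 13 MDA-MB-231 arrays 4 of the 10 did, CDH1 among them. Of 9 fibroblast markers 5 lay above it on all 4 MCF10 arrays and 3 on all 13 MDA-MB-231 arrays. Of 10 mesenchymal markers 8 lay above it on all 4 MCF10 arrays and 5 on all 13 MDA-MB-231 arrays. All of 13 arrays is a stricter bar than all of 4, and the level was 6.42 and 6.46 at Maraviroc IC50, so these counts are not like for like. Mean levels per array overlapped between the lines for epithelial and mesenchymal markers. They did not for basal (7.53 to 9.58 in MCF10, 4.68 to 5.80 in MDA-MB-231) and fibroblast markers (8.03 to 8.54, 5.84 to 6.27). The title MCF10 is kept here as a label, since these markers do not settle the identity of the cells.

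**Figure D1:**
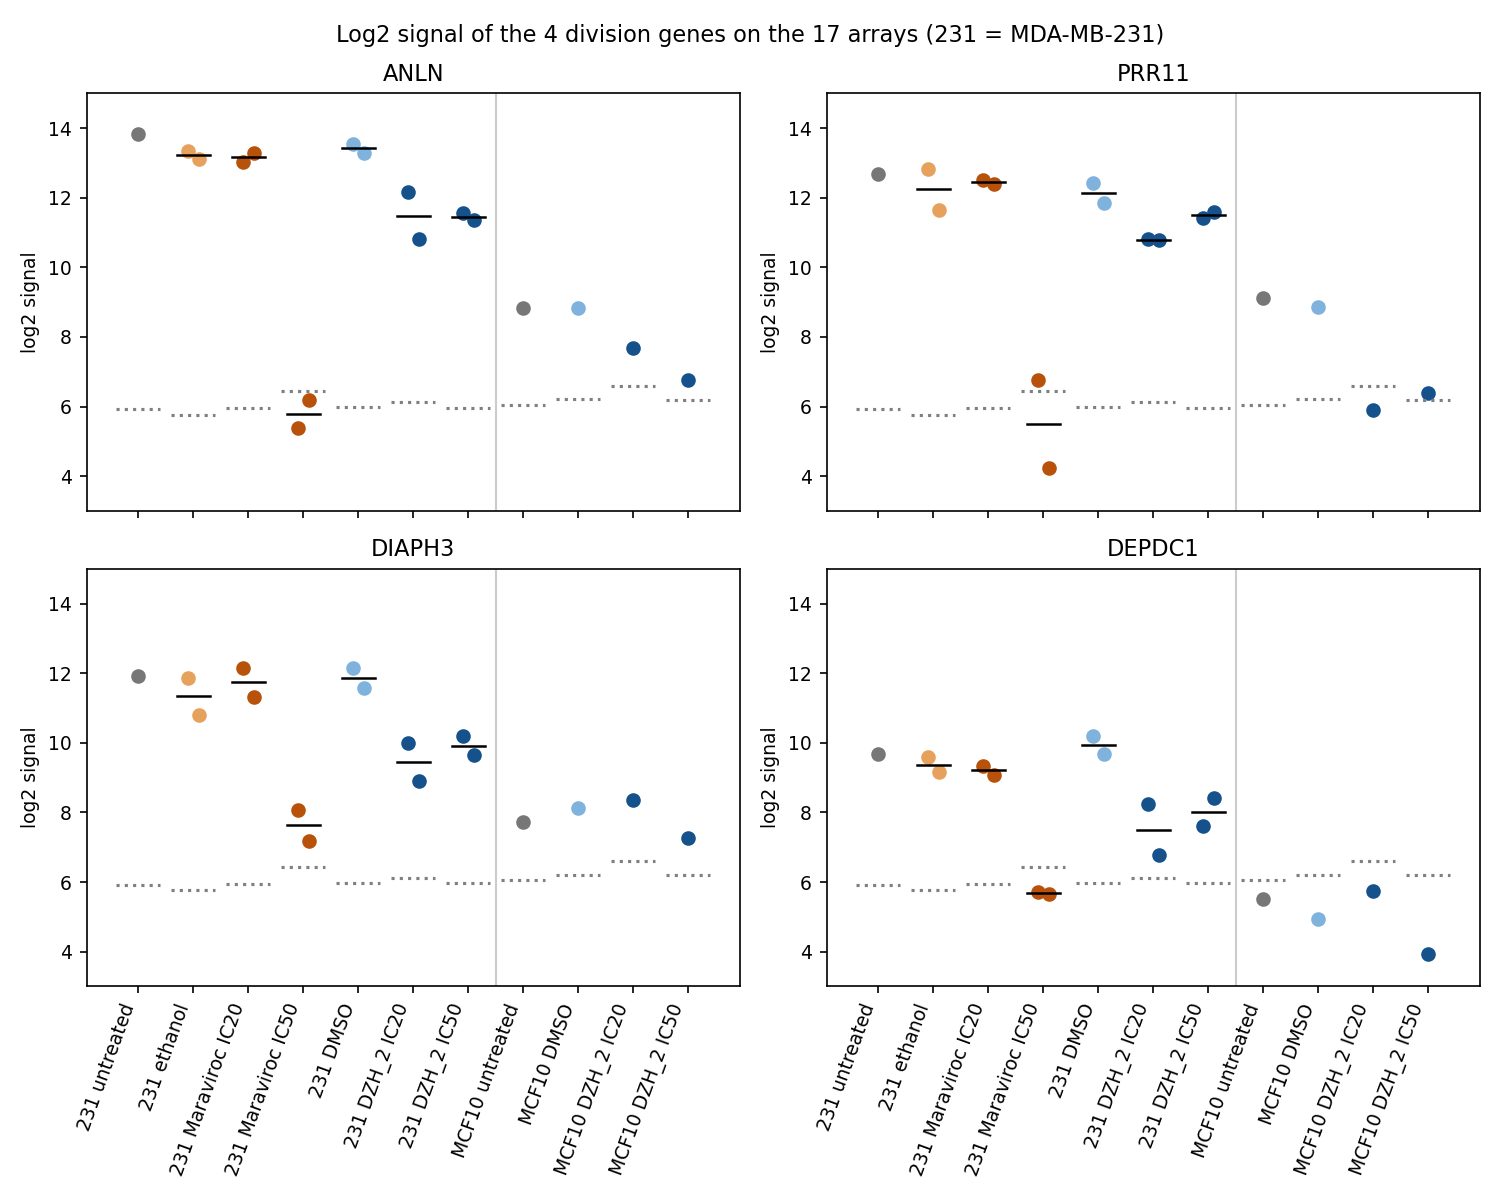
Log2 signal of ANLN, PRR11, DIAPH3 and DEPDC1 (vertical axes) on each of the 17 arrays, by group along the horizontal axis. Points are arrays, black bars are means of 2 arrays and dotted lines the 75th percentile of the negative controls in that group. At Maraviroc IC50 ANLN stands at 5.39 and 6.18, below its dotted line, and the DZH_2 groups of MDA-MB-231 lie between that and the solvents.

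At Maraviroc IC50 all 4 genes stood far below ethanol in MDA-MB-231, and 3 of them had a mean below the negative control level. ANLN (Entrez 54443, chromosome 7, 36389862 to 36453791 in GRCh38.p14) stood at 5.39 and 6.18 at Maraviroc IC50, against 13.34 and 13.12 in ethanol. PRR11 (Entrez 55771, chromosome 17, 59155746 to 59206709) stood at 6.78 and 4.23, against 12.84 and 11.66 in ethanol. The treated arrays of both genes lay far under the ethanol arrays, and PRR11 differed between its 2 treated arrays by more than any other of the 4 genes did in any group. These 2 genes were picked from this comparison, so their log2 differences of -7.45 ± 0.40 for ANLN and -6.74 ± 0.61 for PRR11 (SE, n = 2 arrays per group) are a description. Both ANLN arrays and 1 PRR11 array lay under the negative control level. With treated arrays under that level set to it, the group mean was 111-fold lower for ANLN and 49.5-fold lower for PRR11. Such values leave out the scatter between arrays.

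DIAPH3 and DEPDC1, which were picked from DZH_2, fell at Maraviroc IC50 in limma's test. DIAPH3 (Entrez 81624, chromosome 13, 59665583 to 60163928) stood at 8.08 and 7.18 at Maraviroc IC50, against 11.88 and 10.81 in ethanol. Its arrays do not overlap with those of ethanol and stay above the negative controls. DIAPH3 fell by 3.71 ± 0.48 on the log2 scale, a 13.1-fold change (limma, adjusted p = 1.2e-04, 95% interval -4.74 to -2.68). DEPDC1 (Entrez 55635, chromosome 1, 68474152 to 68497082) stood at 5.70 and 5.64, against 9.58 and 9.15 in ethanol. Both treated arrays were under the negative control level and the groups did not overlap. DEPDC1 fell by 3.70 ± 0.43 (limma, adjusted p = 5.7e-05, 95% interval -4.62 to -2.78), and its mean was 7.59-fold lower with the treated arrays set to the negative control level. In this comparison limma called 27% of all genes (15% of all genes lower and 12% higher), and in 25.7% both treated arrays lay below both ethanol arrays.

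With arrays centred on their medians, the median over all genes at Maraviroc IC50 became 0.28, against 0.11 as deposited, a shift of 0.17 on the log2 scale that is small beside the differences of the 4 genes. RNA came from whole cultures, so fewer dividing cells and less RNA per dividing cell cannot be told apart in any of these comparisons.

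At Maraviroc IC20 the arrays of each of the 4 genes overlapped with those of ethanol. DIAPH3 stood at 12.16 and 11.33 at Maraviroc IC20, against 11.88 and 10.81 in ethanol, a difference of 0.40 ± 0.48 (limma, adjusted p = 1, 95% interval -0.63 to 1.44). DEPDC1 stood at 9.33 and 9.08, against 9.58 and 9.15, a difference of -0.16 ± 0.43 (limma, adjusted p = 1, 95% interval -1.08 to 0.76). A 2-fold higher level of DIAPH3 and a 2-fold lower level of DEPDC1 lie within these intervals. ANLN stood at 13.03 and 13.29 and PRR11 at 12.51 and 12.39 at Maraviroc IC20, with differences from ethanol of -0.07 ± 0.40 and 0.21 ± 0.61 that share ethanol with the comparison these 2 were picked from. Limma called 0% of all genes at this dose (309 genes at an unadjusted p under 0.05).

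Between the Maraviroc doses the step was about as large as that between IC50 and ethanol. DIAPH3 was lower at IC50 than at IC20 by a log2 difference of -4.11 ± 0.48 (limma, adjusted p = 6.2e-05) and DEPDC1 by -3.54 ± 0.43 (limma, adjusted p = 8.0e-05), where 14.8% of all genes were called lower. ANLN differed by -7.38 ± 0.40 and PRR11 by -6.95 ± 0.61 as a description. With IC50 arrays under the negative control level set to it, the mean of ANLN was 105-fold, that of PRR11 57.1-fold and that of DEPDC1 6.79-fold lower at IC50. For each of the 4 genes both IC50 arrays lay below both IC20 arrays, as in 26.2% of all genes.

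DZH_2 left the 4 genes at intermediate levels in MDA-MB-231, and ANLN fell in limma's test at both doses. ANLN stood at 12.17 and 10.81 at DZH_2 IC20, against 13.56 and 13.29 in DMSO. At DZH_2 IC50 it stood at 11.56 and 11.35, against the same DMSO arrays. All 4 treated arrays lay below both DMSO arrays, and the IC20 arrays differed between them by more than those at IC50. ANLN fell by 1.93 ± 0.40 at IC20, a 3.82-fold change (limma, adjusted p = 0.0456, 95% interval -2.79 to -1.07). It fell by 1.97 ± 0.40 at IC50, a 3.92-fold change (limma, adjusted p = 0.0346, 95% interval -2.83 to -1.11). Limma called 0.435% of all genes lower at IC20 and 0.984% at IC50 (0.435% and 0.582% higher), and in 22.2% and 23.5% both treated arrays lay below both DMSO arrays. Both calls were lost when single arrays were left out, which leaves 1 array in a group. At IC20 this was so without DZH_2 IC20 replicate 2 (with a difference of -1.25) and without either DMSO array. At IC50 it was so whichever of the 4 arrays was left out, and the difference stayed between -2.11 and -1.83. Quantile normalization gave an adjusted p of 0.0628 at IC20 and 0.0538 at IC50, and the 4 arrays alone gave 0.0585 at IC20. Over all alternatives run the adjusted p of ANLN lay between 0.00641 and 0.348 at IC20 and between 0.00494 and 0.306 at IC50.

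PRR11 did not pass the threshold with DZH_2 at either dose. It stood at 10.80 and 10.78 at IC20, against 12.41 and 11.84 in DMSO. At IC50 it stood at 11.41 and 11.60, against the same DMSO arrays. The treated arrays of both doses lay below the DMSO arrays, the IC50 ones nearer to them. The differences were -1.34 ± 0.61 at IC20 (limma, adjusted p = 0.413, 95% interval -2.67 to -0.01) and -0.62 ± 0.61 at IC50 (limma, adjusted p = 0.704, 95% interval -1.95 to 0.71). A fall of 2-fold or more at either dose lies within these intervals.

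DIAPH3 and DEPDC1, picked from DZH_2 IC20, are described at both doses. DIAPH3 stood at 9.98 and 8.89 at IC20 and at 10.20 and 9.64 at IC50, against 12.14 and 11.58 in DMSO, with log2 differences of -2.42 ± 0.48 and -1.94 ± 0.48. DEPDC1 stood at 8.23 and 6.77 at IC20 and at 7.60 and 8.41 at IC50, against 10.19 and 9.67 in DMSO, with log2 differences of -2.43 ± 0.43 and -1.92 ± 0.43. The treated arrays of both genes lay below their DMSO arrays and above the negative controls, and the lower IC20 array was replicate 2 for DIAPH3, DEPDC1 and ANLN alike. Without DZH_2 IC20 replicate 2 the IC20 difference of DEPDC1 was -1.70.

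The DZH_2 doses did not separate in the tests. Between IC50 and IC20 ANLN differed by -0.04 ± 0.40 (95% interval -0.90 to 0.82) and PRR11 by 0.71 ± 0.61 (95% interval -0.62 to 2.05), each with an adjusted p of 0.999 by limma, which called 0% of all genes here (721 at an unadjusted p under 0.05). The direction for ANLN is not settled: it was 0.06 after quantile normalization, 0.64 without DZH_2 IC20 replicate 1 and 0.07 without DZH_2 IC50 replicate 2. DIAPH3 and DEPDC1 stood 0.48 ± 0.48 and 0.51 ± 0.43 higher at IC50 than at IC20 as a description.

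**Figure D2:**
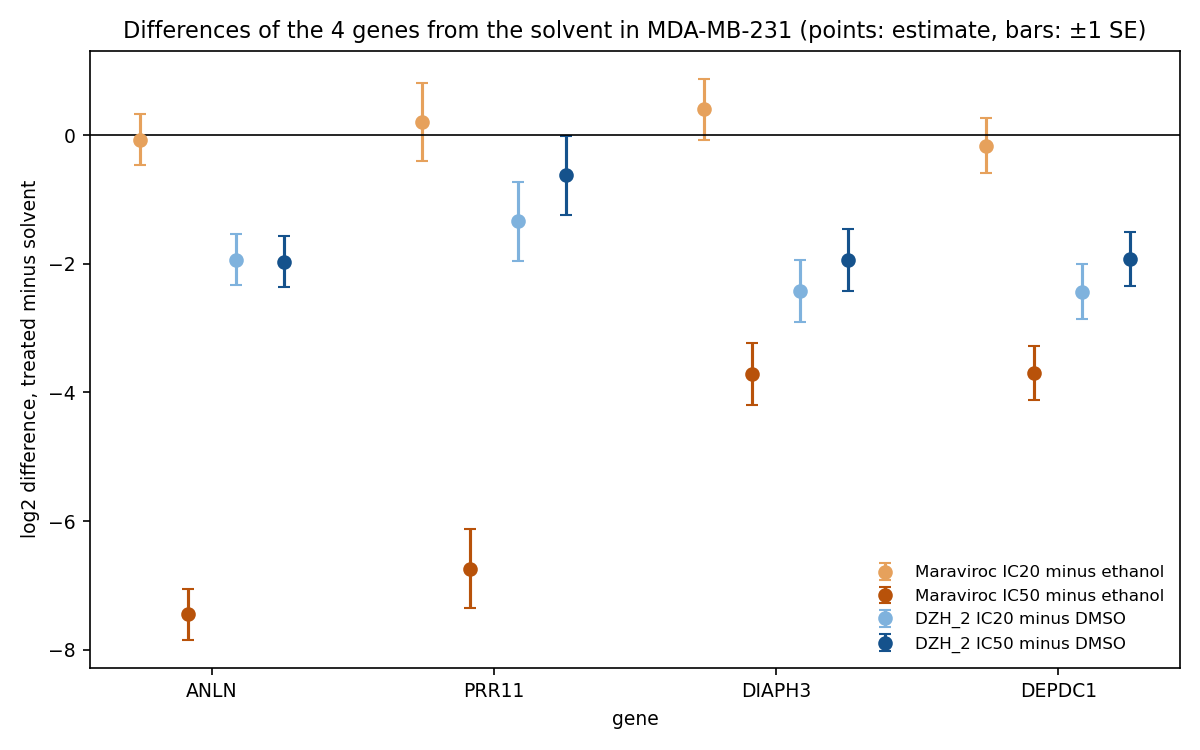
Log2 difference from the solvent (vertical axis) of each gene in MDA-MB-231, for Maraviroc IC20 and IC50 against ethanol and DZH_2 IC20 and IC50 against DMSO. Points are estimates from groups of 2 arrays and bars 1 SE from limma. ANLN and PRR11 lie at -7.45 and -6.74 at Maraviroc IC50, DIAPH3 and DEPDC1 at -3.71 and -3.70 (treated means of ANLN, PRR11 and DEPDC1 below the negative control level), and the Maraviroc IC20 points lie near 0.

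At matched inhibitory concentrations the compounds differed in opposite ways, which is a description since each gene was picked from 1 of them. At IC20 the difference of DZH_2 from DMSO minus that of Maraviroc from ethanol was -1.87 ± 0.56 for ANLN, -1.54 ± 0.87 for PRR11, -2.82 ± 0.67 for DIAPH3 and -2.27 ± 0.60 for DEPDC1. At IC50 it was 5.48 ± 0.56 for ANLN, 6.12 ± 0.87 for PRR11, 1.77 ± 0.67 for DIAPH3 and 1.77 ± 0.60 for DEPDC1. The Maraviroc IC50 means of ANLN, PRR11 and DEPDC1 lay below the negative control level, and with arrays under it set to it these differences became 4.82, 5.01 and 1.001. Relative to solvent, each gene thus stood lower with DZH_2 at IC20 and lower with Maraviroc at IC50, but for PRR11 at IC20 the 95% interval (-3.43 to 0.34) holds 0. The doses are matched by inhibition, not by concentration. Between the solvents themselves, ethanol minus DMSO ranged from -0.56 ± 0.43 for DEPDC1 to 0.12 ± 0.61 for PRR11. Both ethanol arrays of DEPDC1 lay below both of its DMSO arrays. On the single untreated array ANLN stood at 13.85, PRR11 at 12.68, DIAPH3 at 11.94 and DEPDC1 at 9.69.

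The order of the 7 MDA-MB-231 groups began the same way in all 4 genes, with Maraviroc IC50 lowest, then the DZH_2 groups, then Maraviroc IC20 and the controls. For ANLN the group means were 5.78 ± 0.56 at Maraviroc IC50, 11.46 ± 0.15 at DZH_2 IC50 and 11.49 ± 0.96 at DZH_2 IC20 (SD, n = 2), and the DZH_2 doses overlapped. Maraviroc IC20 (13.16 ± 0.19), ethanol (13.23 ± 0.16) and DMSO (13.43 ± 0.19) followed, each overlapping with its neighbour. For DIAPH3 the means were 7.63 ± 0.64 at Maraviroc IC50, 9.44 ± 0.77 at DZH_2 IC20 and 9.92 ± 0.40 at DZH_2 IC50, of which the DZH_2 doses overlapped. Ethanol (11.34 ± 0.76), Maraviroc IC20 (11.74 ± 0.59) and DMSO (11.86 ± 0.40) overlapped with one another in DIAPH3. For DEPDC1 the means were 5.67 ± 0.04, 7.50 ± 1.03 and 8.004 ± 0.57 at Maraviroc IC50, DZH_2 IC20 and DZH_2 IC50, then 9.21 ± 0.17 at Maraviroc IC20, 9.37 ± 0.30 in ethanol and 9.93 ± 0.36 in DMSO. DEPDC1 overlapped between the DZH_2 doses and between Maraviroc IC20 and ethanol, and its ethanol arrays lay below its DMSO arrays. PRR11 was the gene whose DZH_2 doses did not overlap, with means of 5.50 ± 1.80 at Maraviroc IC50, 10.79 ± 0.02 at DZH_2 IC20 and 11.51 ± 0.14 at DZH_2 IC50. DMSO (12.13 ± 0.41), ethanol (12.25 ± 0.84) and Maraviroc IC20 (12.45 ± 0.08) followed for PRR11, each overlapping with its neighbour.

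Across the 13 MDA-MB-231 arrays the 4 genes followed each other, with Pearson's r from 0.88 for PRR11 and DEPDC1 to 0.96 for DIAPH3 and DEPDC1. Without the 2 Maraviroc IC50 arrays, r over the other 11 ranged from 0.81 for ANLN and PRR11 to 0.93 for ANLN and DEPDC1. These arrays share groups and the genes were picked for low levels in some of them, so the correlations describe the pattern only. The 5 genes most like ANLN over 13 arrays were TFDP2 (0.99), a partner of E2F factors, TMPO, a nuclear envelope gene, NEIL3, a DNA glycosylase, NUSAP1, which binds spindle microtubules, and R3HDM1. For DIAPH3 they were VRK1, a kinase of dividing cells, KNL1, the kinetochore scaffold, SKA2, KIF23, a motor of the central spindle, and SGO1, which protects centromeric cohesion, at r from 0.98 to 0.99. For DEPDC1 they were ECT2, the exchange factor that activates RhoA in cytokinesis (0.98), KNL1, TMOD3, KIF11, a spindle motor, and MCM8. The genes most like PRR11 were TDP1 (0.99), HNRNPUL1, FTO, GSPT1 and KPNA2.

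Without the Maraviroc IC50 arrays the nearest genes changed in part. For ANLN they were NUSAP1 (0.99), KIF11, NCAPG and NCAPH, both condensin subunits, and RFC4, a clamp loader subunit. For PRR11 they were MYH10 (0.97), which codes for a non-muscle myosin heavy chain, PHF19, TRIP13, AURKA and PRTFDC1. For DIAPH3 they were VRK1 (0.97), SKA2, CKAP2L, ECT2 and DNMT1, so VRK1 and SKA2 were among the 5 with and without those arrays. For DEPDC1 they were MBD2 (0.98), UCHL5, TFAM, PSMD14 and PAPOLA, none of which was among its 5 over 13 arrays.

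The other genes of cytokinesis did not move as 1 block at Maraviroc IC50. All 13 measured genes of the central spindle list fell, with a median log2 difference of -4.27, where the median of all genes was 0.11. Limma called 15% of all genes lower in this comparison and 12% higher. KIF4A, a kinesin of the spindle midzone, stood at 4.51 and 4.38 at Maraviroc IC50, against 9.14 and 8.95 in ethanol, and fell by 4.60 ± 0.33 (limma, adjusted p = 2.6e-06). PRC1, which bundles midzone microtubules, had a difference of -5.37 ± 0.46, CDCA8, a subunit of the chromosomal passenger complex, one of -4.86 ± 0.35, and PLK1, the kinase that promotes ECT2 recruitment, one of -5.51 ± 0.43. In 9 of the 13, KIF4A, PRC1 and CDCA8 among them, the treated mean lay below the negative control level, and with treated arrays set to that level the median was -3.25. Of 18 contractile ring genes 7 fell and none rose (38.9%, median -0.87). Those that fell include the actin crosslinker ACTN4 (-4.03 ± 0.33), the myosin heavy chain MYH9 (-2.37 ± 0.31) and the myosin light chain MYL12B (-1.72). Of 10 septins, filament proteins that anillin binds, 5 fell and none rose (50%, median -0.85). SEPTIN11 (-4.39 ± 0.32), SEPTIN9 (-1.81), SEPTIN2 (-1.64) and SEPTIN6 (-2.21) were among those that fell.

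The abscission list went the other way in part at Maraviroc IC50. Of its 20 measured genes 7 rose and 2 fell (median 0.23), where 12% of all genes rose and 15% fell. CHMP4C, 1 of those that rose, had a mean below the negative control level in both groups, so its rise is not settled. CEP55, which brings the ESCRT machinery to the midbody, fell by 3.54 ± 0.49, and the ESCRT-III genes CHMP1A and CHMP1B rose by 1.59 ± 0.35 and 1.29 ± 0.26. MITD1, which binds ESCRT-III at the midbody, rose by 1.47 ± 0.30. Over the cytokinesis lists (central spindle, contractile ring, septins and abscission) 27 of 61 measured genes fell and 7 rose, 55.7% in all, beside 27% of all genes.

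Relatives of the 4 genes differed in the extent of their change at Maraviroc IC50. Of 12 formins 5 fell and 1 rose, 50% in all, beside 27% of all genes. DIAPH1 and DIAPH2, the closest relatives of DIAPH3, fell, with differences of -2.39 ± 0.28 and -2.63 ± 0.32, and FMNL3 rose by 1.49 ± 0.25. DEPDC1B, the relative of DEPDC1, fell by 2.14 ± 0.29 and was the 1 gene called of 4 DEP domain relatives, a share of 25% that is near the 27% of all genes. All 3 SKA genes fell, among them SKA2, the neighbour of PRR11, with -3.78 ± 0.40.

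Mitotic genes in general were low in the same arrays. Of 21 mitotic markers 20 fell at Maraviroc IC50 (median -4.61), beside 15% of all genes. TPX2, a spindle assembly factor, was among them, with -5.88 ± 0.32. For 10 of the 21 the treated mean lay below the negative control level, and with treated arrays set to that level the median was -3.86. Of 22 genes of cell cycle transcription 14 fell and 2 rose, 72.7% in all, beside 27% of all genes. FOXM1, a transcription factor of G2 and M genes, fell by 6.01 ± 0.45, RBL1, a pocket protein, had a difference of -3.94 ± 0.33, and LIN37, a MuvB subunit, rose by 2.43 ± 0.32. The adjusted p of the genes named from these lists as rising or falling at Maraviroc IC50 was at most 0.00489 by limma. The mean of KIF4A, CDCA8, PRC1, SEPTIN11, CEP55, DIAPH2 and DEPDC1B at Maraviroc IC50 lay below the negative control level, so the size of their differences is not settled.

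**Figure D3:**
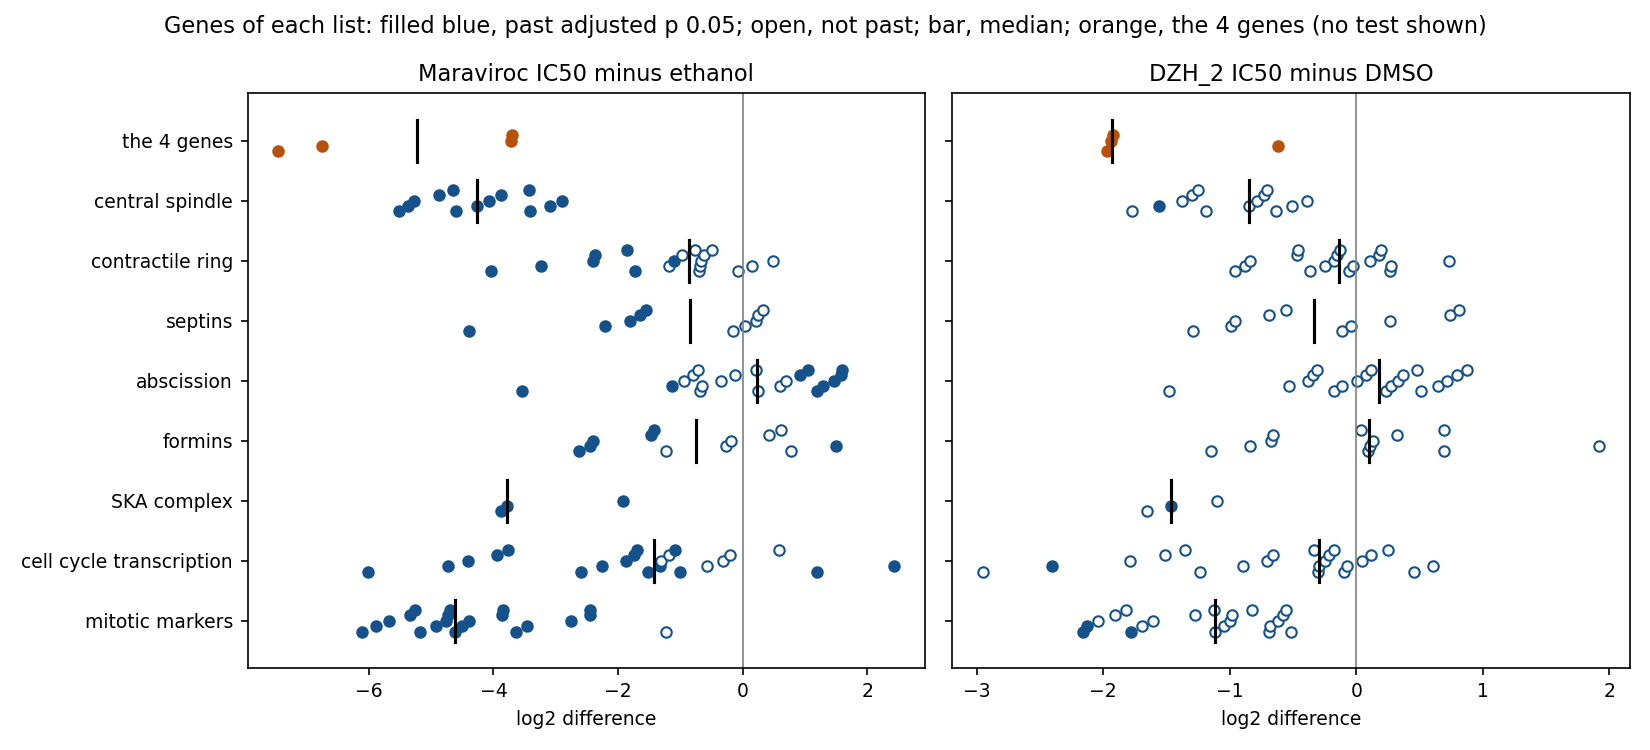
Log2 difference (horizontal axis) of the genes of each list (rows) at Maraviroc IC50 against ethanol, left, and DZH_2 IC50 against DMSO, right, with different scales. Blue points are genes (filled where limma's adjusted p is under 0.05), bars are medians and orange points the 4 genes. On the left all 13 central spindle genes lie below 0 and are filled. On the right 1 of 13, KIF4A, is filled.

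With DZH_2 few genes of these lists passed in MDA-MB-231. KIF4A stood at 7.21 and 6.34 at IC20 and at 7.26 and 7.08 at IC50, against 9.11 and 8.36 in DMSO. It was the 1 gene of 61 in the cytokinesis lists that passed, and its differences were -1.96 ± 0.33 at IC20 (limma, adjusted p = 0.0238) and -1.56 ± 0.33 at IC50 (limma, adjusted p = 0.0391). That 1 gene is 1.64% of the lists, beside 0.871% of all genes called at IC20 and 1.57% at IC50. Without either DMSO array, without DZH_2 IC20 replicate 2, or without either DZH_2 IC50 array the count for that dose was 0, and other fits gave up to 6 at IC20 and 5 at IC50.

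All 13 central spindle genes had a negative difference from DMSO at each DZH_2 dose, with medians of -1.19 at IC20 and -0.85 at IC50. Among all 17687 genes 8887 had a negative difference at IC20 and 8164 at IC50. The medians of the contractile ring, septin and abscission lists lay between -0.34 and 0.18 at these doses, and those of all genes at 0.00 and 0.04. All 21 mitotic markers had negative differences as well (medians -1.25 and -1.12). Of these, 3 passed at each dose (14.3%), where 0.871% of all genes were called at IC20 and 1.57% at IC50. They were MKI67, the proliferation marker, TPX2 and NDC80, a kinetochore gene. At IC50 their differences were -2.12 ± 0.47 for MKI67, -1.78 ± 0.32 for TPX2 and -2.16 ± 0.37 for NDC80. The adjusted p by limma was 0.0457, 0.0233 and 0.0181 in that order, and 0.0331, 0.0205 and 0.036 at IC20. RBL1 fell, with -2.17 ± 0.33 at IC20 and -2.41 ± 0.33 at IC50 (limma, adjusted p = 0.0154 and 0.00799). It was the 1 gene of 22 called in the cell cycle transcription list (4.55%). The calls of these list genes were not followed gene by gene with single arrays left out. Whichever array of a DZH_2 comparison was left out, fewer of all genes passed than in the main fit.

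Among relatives, DEPDC1B fell by 1.41 ± 0.29 at DZH_2 IC50 (limma, adjusted p = 0.0369) and stood at -1.29 ± 0.29 at IC20 (limma, adjusted p = 0.0652). SKA2 stood at -1.84 ± 0.40 and -1.65 ± 0.40 (limma, adjusted p = 0.0527 at IC20 and 0.061 at IC50). SKA1 fell, with -1.68 ± 0.29 and -1.47 ± 0.29 (limma, adjusted p = 0.0265 at IC20 and 0.0333 at IC50). DIAPH1 stood at -0.12 ± 0.28 at IC20 and 0.11 ± 0.28 at IC50, and DIAPH2 at -1.46 ± 0.32 and -1.15 ± 0.32. DAAM2, another formin, stood at 2.36 ± 0.51 and 1.92 ± 0.51, but its DMSO mean of 4.69 lay below the negative control level. No formin passed at either dose. Of 12 formins 5 had a negative difference at IC20 and 4 at IC50. At Maraviroc IC20 none of the genes of any list passed.

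**Figure D4:**
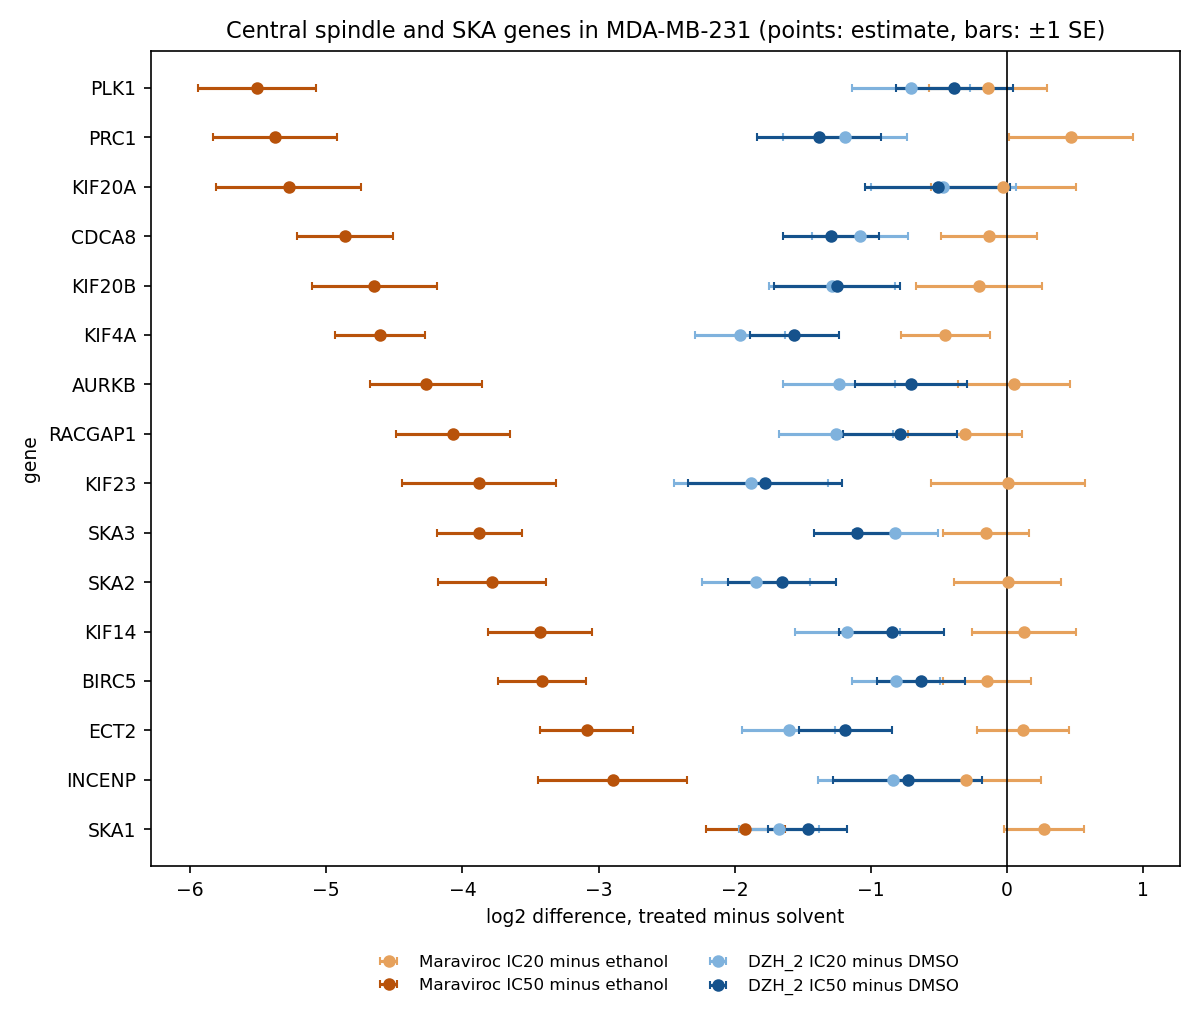
Log2 difference from the solvent (horizontal axis) of the 13 central spindle genes and the 3 SKA genes (rows) in MDA-MB-231 for 4 comparisons. Points are estimates from groups of 2 arrays and bars 1 SE from limma. At Maraviroc IC50 the 16 genes lie between -5.51 for PLK1 and -1.92 for SKA1, and at Maraviroc IC20 they lie near 0.

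In the arrays titled MCF10 the 4 genes differed in how they stood after DZH_2, with 1 array per condition and no replicate check. ANLN stood at 7.68 at DZH_2 IC20 and 6.76 at IC50, against 8.85 in DMSO, differences of -1.17 and -2.08. PRR11 stood at 5.91 at IC20 and 6.39 at IC50, against 8.87 in DMSO. Its IC20 array lay below the negative control level. With that array set to the level PRR11 was 4.80-fold lower there, and its difference at IC50 was -2.48. DIAPH3 stood at 8.35 and 7.26, against 8.13 in DMSO, and DEPDC1 at 5.74 and 3.92, against 4.93. ANLN and PRR11 were thus lower by at least 1 at both doses, as were 4.88% of all genes (12.8% at IC20 and 8.83% at IC50, with 11.6% and 9.38% higher by at least 1), while DIAPH3 differed from DMSO by 0.23 at IC20 and by -0.86 at IC50.

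DEPDC1 lay under the negative control level on all 4 MCF10 arrays, so no difference was measured for it there. Apart from DEPDC1, DMSO minus untreated ranged from -0.27 for PRR11 to 0.39 for DIAPH3 in MCF10. On the untreated MCF10 array ANLN stood at 8.84, PRR11 at 9.13, DIAPH3 at 7.74 and DEPDC1 at 5.51. These levels are all below those of the MDA-MB-231 controls, but the MCF10 arrays also had lower medians over probe sets (6.75 to 6.85, against 7.10 to 7.18 on the MDA-MB-231 arrays other than Maraviroc IC50), and no source used here states how arrays were scaled to each other. Of 13 central spindle genes 7 were lower by at least 1 at both DZH_2 doses in MCF10 (medians -1.71 at IC20 and -1.64 at IC50), as were 13 of 21 mitotic markers (medians -1.14 and -2.14). Several of these arrays were under the negative control level, and with such arrays set to it the medians were -0.91 and -1.11 for the central spindle list and -0.94 and -1.35 for the mitotic markers. No gene of the 18 in the contractile ring list was lower by at least 1 at both doses, where 4.88% of all genes were.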

How the data were processed

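Gene expression was measured on 17 Affymetrix arrays. Per the labels' protocols, Trizol was used for total RNA and the GeneChip WT PLUS kit for biotin labelling. The authors deposited log2 signals for 24351 probe sets, which were taken unchanged. How they were summarised and normalized was not stated in any source used here. Column medians were 6.75 to 7.18. Precision is limited by the number of arrays. Titles gave the groups. By Entrez identifier 17709 probe sets have 1 gene symbol and 6642 none listed. Where a gene had several probe sets (20 genes), the brightest was kept. A single limma 3.58.1 fit covered the 12 arrays of the 6 MDA-MB-231 groups with replicates, in R 4.3.3 (lmFit, eBayes, 6 residual degrees of freedom), 2-sided, with Benjamini-Hochberg adjustment over 17687 genes and a threshold of 0.05. Standard errors (±) come from that fit. The step was tested on simulated data. Alternatives were normalization, centring, filter, array sets, weights, replicate block and leaving out arrays.

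The members and lists were chosen with earlier results of these data known. Genes named are the 4 members, their closest relatives, up to 4 per list with the smallest p past the threshold at Maraviroc IC50 and DZH_2 IC50 (2 where none passed, of which not all are printed), and the 5 genes most like each member by Pearson correlation. RefSeq promoter sequences of GRCh38.p14 matched all 4 members, and no source used here names a build for the array.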

Additional observations from a re-analysis of the deposited data

Results flagged for a closer look

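For DIAPH3 and DEPDC1 the sign of the difference at DZH_2 IC20 was not the same on the MCF10 array as on the MDA-MB-231 arrays. On the MCF10 array DIAPH3 was 0.23 and DEPDC1 0.81 above DMSO on the log2 scale, whereas both MDA-MB-231 arrays lay below both DMSO arrays, by means of -2.42 and -2.43. MCF10 has 1 array per condition, so the difference between the lines was not tested. The value of DIAPH3 is smaller than its difference between the DMSO and untreated MCF10 arrays (0.39). DEPDC1 was under the negative control level on both MCF10 arrays, so no direction was measured for it there. Both genes were picked for their low level in MDA-MB-231.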

How the results depend on the processing

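The falls of DIAPH3 and DEPDC1 at Maraviroc IC50 kept direction and call under every alternative run, against ethanol and against Maraviroc IC20 (adjusted p at most 0.00603). PRR11 stayed short of the threshold with DZH_2 throughout. ANLN with DZH_2 lost its call under quantile normalization (-1.93 at IC20, -1.86 at IC50) and, at IC20, with the 4 arrays alone (-1.93). Leaving out 1 array gave -2.61 to -1.25 at IC20 and -2.11 to -1.83 at IC50. The cause was not tested. The small differences turned sign when 1 array was left out: ANLN between DZH_2 doses (-0.71 to 0.64, and 0.0643 under quantile normalization), DIAPH3 (-0.13 to 0.94), DEPDC1 (-0.37 to 0.0531), ANLN (-0.20 to 0.0631) and PRR11 (-0.38 to 0.80) at Maraviroc IC20, and DIAPH3 (-0.0616 to 1.03) and DEPDC1 (-0.22 to 1.24) between DZH_2 doses. For PRR11 at Maraviroc IC50 leaving out 1 array gave -8.01 to -5.47.

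The count of cytokinesis genes past the threshold with DZH_2 was 1 at each dose. At IC20 it was 2 with the low-signal filter (fewer genes tested), 3 with array weights, 3 with the 4 arrays alone, 5 without the Maraviroc IC50 arrays, 6 against all 5 control arrays and 0 to 2 with 1 array left out. At IC50 it was 5 with array weights, 5 with the 4 arrays alone, 3 without the Maraviroc IC50 arrays, 5 against all 5 control arrays and 0 with 1 array left out. At Maraviroc IC50 it was 34, with 26 to 42 over the alternatives. Alternatives other than leaving out 1 array gave counts over all genes of 125 to 495 at DZH_2 IC20 (154 as fitted) and 222 to 942 at DZH_2 IC50 (277). They gave 2399 to 6846 at Maraviroc IC50 (4778), 2632 to 5141 between the Maraviroc doses (4719) and 0 to 1 at Maraviroc IC20 (0). With any 1 array left out, which leaves 1 array in a group, fewer genes passed at both DZH_2 doses than as fitted.

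The labels do not say what a replicate number marks. Deviations of same-numbered arrays correlated between -0.15 and 0.30 over the pairs of groups, highest for the DZH_2 doses (0.30) and for Maraviroc IC20 and ethanol (0.25), which does not establish a pairing. With the replicate block the adjusted p of ANLN was 0.045 at DZH_2 IC20 and 0.0349 at IC50, the cytokinesis counts were 3 and 3, and no call of the 4 genes changed.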
